A study of Homo sapiens with 3 samples.

Results

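The 45 genes described here encode proteins of the entry into S phase, of DNA replication and of the passage through mitosis, in MTAC-P cells with and without a hairpin against BCAT1. They are a list of cell cycle genes of S and G2/M phase that also holds 6 regulators of G1 and G1/S. They were taken by symbol from 26555 genes and accessions in the deposited tables, and all 45 were found. MTAC-P is a human lung cancer line derived from PC9 that resists EGFR tyrosine kinase inhibitors. PC9 is a lung adenocarcinoma line with an activating EGFR mutation. The control is 1 library of MTAC-P cells with a short hairpin against luciferase, and the comparison group is 2 libraries of MTAC-P cells labelled shBCAT1, numbered 1 and 2. All were grown in DMEM with serum, and neither a drug nor a time after the hairpin is named in the labels. Whether the numbers 1 and 2 mark different hairpins, cultures or repeat libraries, and whether the cells were pools or clones, is not given in the sources used here, so a p-value here reflects only how far these libraries lie from each other, a spread that may be technical. The design text speaks of triplicates, and 3 libraries in all are analysed here. Values are FPKM, fragments scaled by transcript length and by the mapped fragments of the library, which puts genes of different length on 1 scale. Runs of 3 values are ordered as control, then shBCAT1 1, then shBCAT1 2, by label.

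Entry into S phase begins with cyclin D and CDK4, then cyclin E, which act on the retinoblastoma protein and release E2F transcription factors, and E2F in turn drives genes of DNA replication. ORC, CDC6 and CDT1 load the MCM2, MCM3, MCM4, MCM5, MCM6 and MCM7 helicase on origins before S phase, and CDC45 and GINS turn it on. Cyclins A and B with CDK1 then drive mitosis, and the anaphase-promoting complex with CDC20 and UBE2C ends it by marking cyclin B and securin for breakdown. Genes of G2 and M phase are held down outside those phases by the DREAM complex at a promoter element called CHR, next to CCAAT boxes bound by NF-Y, while many genes of S phase carry E2F elements. In lung cancer lines these genes are used as a measure of how many cells are dividing.

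The promoter windows of the members show this division in their letters. A RefSeq table on build GRCh38.p14 holds windows from 250 bases before to 50 bases after the annotated start for 37 of the 45 members and 27305 genes in all; MCM4, MCM5, CCND1, CCNE2, AURKA, BIRC5, TPX2 and UBE2C have none there. Windows were searched on both strands for E2F (TTTCCCGC, TTTCGCGC, TTTGCCGC and TTTGGCGC), for CHR (TTTGAA and TTTAAA) and for the CCAAT box (CCAAT), each counted on its own whether or not it overlaps another. An E2F match was present in 11 of 20 members of the G1, G1/S and S phase roles and in 1 of 17 of the G2/M roles, CDK1, beside 3.99% of all genes. A CHR match that begins within 60 bases before the start was present in 3 of 20 and 10 of 17 members, beside 6.85% of all genes. The limit of 60 bases was chosen after the positions had been seen. A CCAAT match was present in 14 of 20 and 16 of 17, beside 39.7% of all genes. The CHR match begins 30 bases before the start in CCNB1, CKS1B and RRM2, 29 before it in CKS2, CCNB2, PLK1 and MKI67, and 28 before it in KIF11 and CCNE1. A match is a description of the letters and not of binding.

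The 120 bases before the start are shown for 3 G2/M members with CCAAT and a CHR match within 60 bases before the start, those with the lowest difference from the control among the members tested, and for 3 members with an E2F match wholly inside these bases, those with the highest. Because they were picked by difference, these examples do not show how a motif goes with direction. MKI67, with CHR and CCAAT, had a difference of 0.24, and PCNA, with an E2F match, one of -0.23. Capitals mark CHR and CCAAT in the 3 G2/M members and E2F in the other 3. The windows on GRCh38.p14 are chr9:89311075-89311194 on the plus strand for CKS2, chr1:154974561-154974680 (plus) for CKS1B, chr5:69167030-69167149 (plus) for CCNB1, chr20:33686386-33686505 (minus) for E2F1, chr16:88803669-88803788 (plus) for CDT1 and chr16:85688955-85689074 (minus) for GINS2.
CKS2: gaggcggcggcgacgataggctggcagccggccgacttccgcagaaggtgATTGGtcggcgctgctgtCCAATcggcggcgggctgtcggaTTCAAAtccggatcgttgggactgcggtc
CKS1B: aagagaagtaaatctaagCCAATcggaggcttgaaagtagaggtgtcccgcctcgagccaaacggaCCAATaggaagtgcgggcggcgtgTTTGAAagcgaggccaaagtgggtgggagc
CCNB1: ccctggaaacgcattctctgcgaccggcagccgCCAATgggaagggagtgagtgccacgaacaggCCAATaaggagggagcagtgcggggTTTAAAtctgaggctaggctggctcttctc
E2F1: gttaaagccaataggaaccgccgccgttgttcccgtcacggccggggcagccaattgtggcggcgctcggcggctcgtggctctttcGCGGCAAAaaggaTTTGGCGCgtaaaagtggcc
CDT1: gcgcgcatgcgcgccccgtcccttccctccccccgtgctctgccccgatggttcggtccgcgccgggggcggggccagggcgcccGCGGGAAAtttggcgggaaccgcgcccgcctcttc
GINS2: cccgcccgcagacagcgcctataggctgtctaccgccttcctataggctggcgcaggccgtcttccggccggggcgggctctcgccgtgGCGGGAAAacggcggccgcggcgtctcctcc

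**Figure D1:**
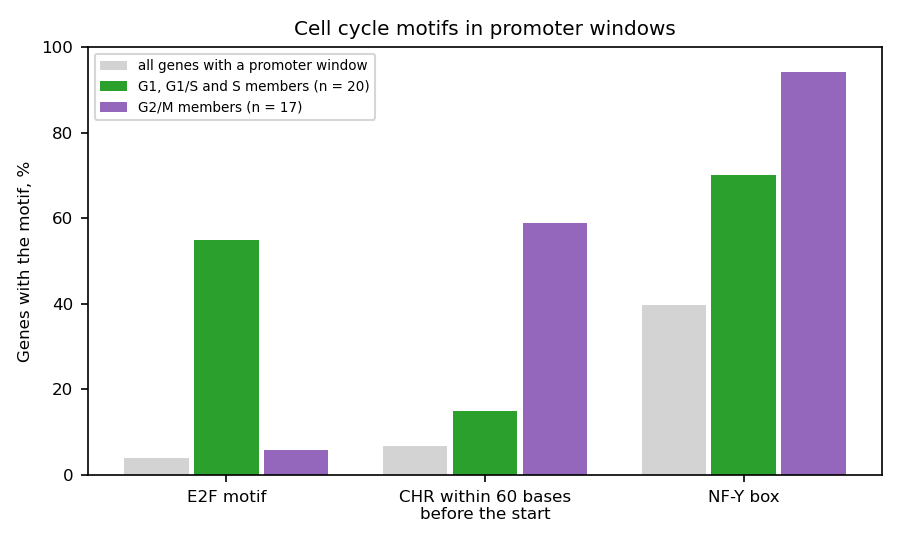
Share of genes, in percent, whose promoter window holds an E2F match, a CHR match beginning within 60 bases before the start, or an NF-Y (CCAAT) box, for all 27305 genes with a window (grey), 20 members of the G1, G1/S and S phase roles (green) and 17 of the G2/M roles (purple). E2F is at 55.0% of the green group and 5.88% of the purple one, CHR at 15.0% and 58.8%.

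Summed FPKM was 53898, 44313 and 46145, and in the libraries labelled shBCAT1 the depth read from the bounds was 1.03 and 1.09 times that of the control. The target BCAT1 was at 0.213, 1.05 and 0.241 FPKM. It was thus not lower in either library labelled shBCAT1, and every direction below is between libraries as labelled. All 6 epithelial markers were detected and summed to 937, 786 and 1092 FPKM, while the lung lineage markers NKX2-1, NAPSA and SFTPB summed to 0.324, 0.0571 and 0.103. The 5 leukocyte markers summed to between 3.63 and 3.77, nearly all of it CD68, with PTPRC listed at 0 throughout. The 5 fibroblast markers summed to at most 0.259, with COL1A2, COL3A1 and DCN listed at 0, and the 4 endothelial markers to at most 0.221. Among signs of RNA quality, the nuclear RNA MALAT1 was at 20.8, 23.4 and 32.8 FPKM, NEAT1 at 8.12, 10.7 and 14.9 and KCNQ1OT1 at 0.104, 0.0967 and 0.109. A list of 11 histone genes, taken as lacking poly(A) tails without a check of each, summed to 31.9, 24.3 and 35.4. The part of these signs in the results below was not tested.

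Levels of the members spanned about 2 orders of magnitude in each library. The highest was CCND1 (cyclin D1) at 15.2, 13.9 and 12.3 FPKM. The lowest was POLA1, the catalytic subunit of DNA polymerase alpha, at 0.140, 0.0986 and 0.187. The median of 44 members was 1.24, 1.19 and 1.44 FPKM. RRM2 is left out of these figures because 1 of its transcripts has the status LOWDATA in every library. The most abundant members after CCND1 were CKS1B, UBE2C, TK1, MCM7, CKS2, PCNA and CDC20, the mean over libraries of each lying between 4.76 and 11.0 FPKM. Of the 45 members, 28 had a mean of at least 1 FPKM and were tested, 16 lay below it at means from 0.142 to 0.850, and RRM2 was not tested. GENCODE release 29 names 6 pseudogenes of CKS1B, 4 of UBE2C, 3 each of PCNA and RRM2, 2 each of AURKA and CCND3, and 1 each of FEN1, CDC20, CDK4, MKI67, BUB1 and CCNB2. How reads shared with these copies were counted is not given in the sources used here, so the levels of these 12 members are uncertain in that respect.

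**Figure D2:**
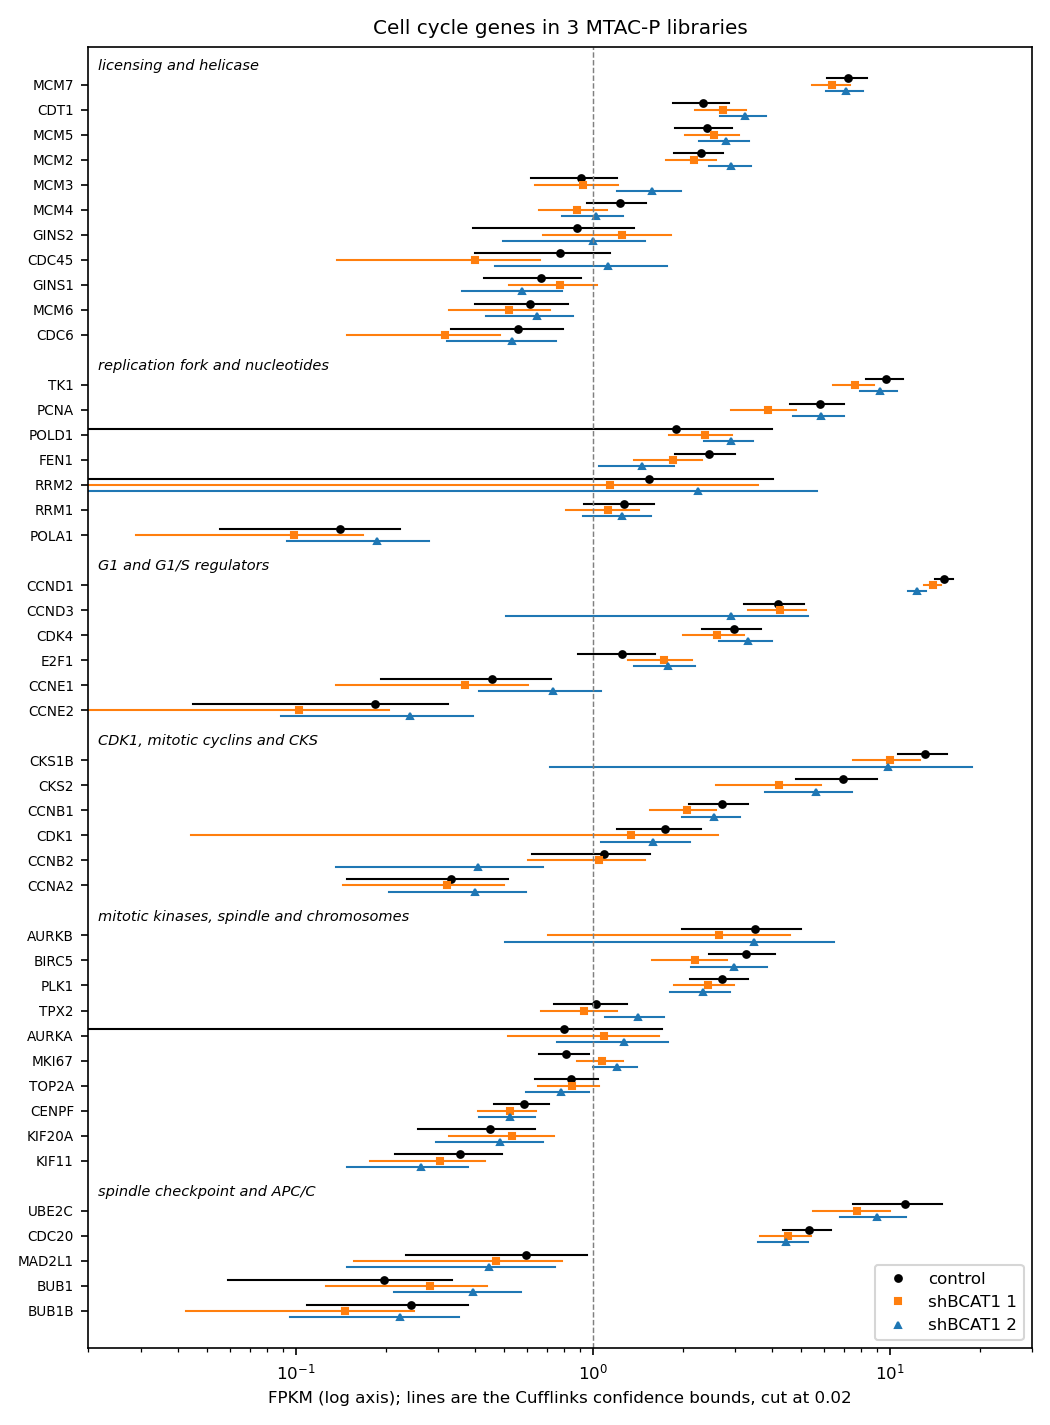
FPKM on a log axis for the 45 members in the control (black circles), the library labelled shBCAT1 1 (orange squares) and the library labelled shBCAT1 2 (blue triangles), grouped by role. Lines are the bounds of a gene, its value plus and minus 2 SD from the bounds of its transcripts. The dashed line is the minimum of 1 FPKM. CCND1 lies at 12.3 to 15.2 in all 3 libraries and POLA1 below 0.2, and for nearly every member the 3 lines overlap.

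No member passed the test between the libraries labelled shBCAT1 and the control. In limma with a trend on log2(FPKM + 1), 0 of 28 members had an adjusted p under 0.05 in either direction, beside 14 lower (0.360%) and 0 higher (0%) of 3889 genes tested. At an unadjusted p under 0.05 the count was again 0 of 28, beside 193 genes lower (4.96%) and 25 higher (0.643%). Median-of-ratios scaling gave 105 lower and 69 higher, and quantile normalization 80 and 87. Removing the trend with transcript length gave 65 and 112, and 11 lower and 2 higher at the adjusted p. The smallest limma adjusted p of a member was 0.799, for CKS1B. Both libraries lay below the control for 15 of 28 members, beside 43.7% of all genes tested, and both lay above it for 8, beside 25.6%. The median difference of the 28 was -0.14 on the log2(FPKM + 1) scale, beside -0.06 over all genes. With shBCAT1 1 alone the medians of members and all genes were -0.13 and -0.12, and with shBCAT1 2 alone -0.02 and 0.01. The share of members below the control is thus near that of all genes.

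The differences of the members from the control were about as large as those between the libraries labelled shBCAT1. The median size of a member's difference was 0.21 from the control to shBCAT1 1, 0.23 to shBCAT1 2 and 0.19 between these libraries. Over all genes tested the same values were 0.19, 0.23 and 0.19. The 95% interval of a member's mean difference reached 0.47 to 0.79 to either side on the log2 scale, factors of 1.39 to 1.73 on FPKM + 1. These intervals are not adjusted for the number of genes tested. Changes within them were not detectable here, and larger ones could also miss the adjusted p. The SD of a member's value read from its bounds, which covers counting and the division of reads among transcripts but no spread between libraries, had a median of 11.3%, 12.5% and 11.4% of the value. The bounds of 0 members lay apart from the control in both libraries in the same direction, beside 4.17% of genes lower and 1.26% higher. In shBCAT1 1 alone 0 members lay apart from the control, beside 7.61% of genes below and 1.65% above. In shBCAT1 2 alone FEN1 and CCND1 lay apart below it, beside 7.66% of genes, and MKI67 above it, beside 7.35%. Between shBCAT1 2 and shBCAT1 1 the bounds of 0 members lay apart, beside 1.83% of genes lower and 7.71% higher. In bulk RNA, fewer cells in a phase and less RNA per cell cannot be told apart.

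**Figure D3:**
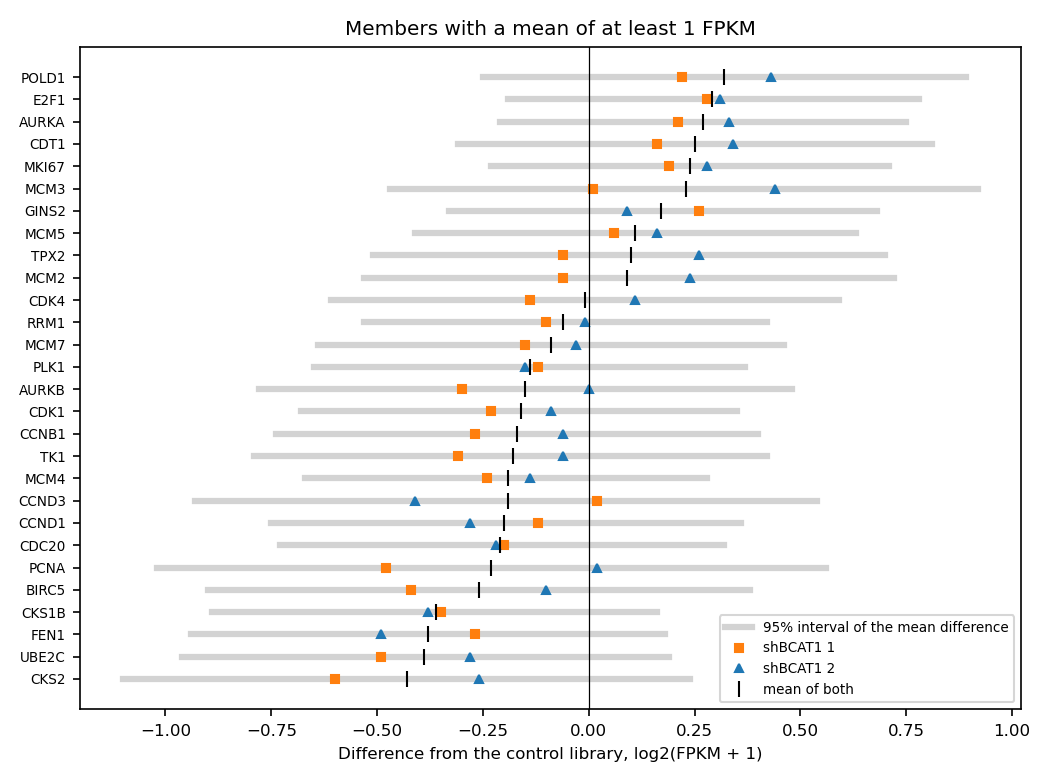
Difference from the control on the log2(FPKM + 1) scale for the 28 members tested, in the library labelled shBCAT1 1 (orange squares) and the library labelled shBCAT1 2 (blue triangles), with their mean (black bars) and its 95% interval from limma (grey). CKS2 is lowest at -0.43 and POLD1 highest at 0.32, and every interval includes 0.

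Genes that license origins and form the helicase gave no common direction in the values as deposited. Of 11, 7 were tested, with 2 lower and 4 higher in both libraries and a median of 0.11. That median was 0.01 with shBCAT1 1 alone, 0.16 with shBCAT1 2 alone and 0.07 without the length trend. Median-of-ratios scaling gave 2 lower and 5 higher, with a median of 0.16 beside -0.01 over all genes. Quantile normalization gave 1 lower and 6 higher, with a median of 0.15 beside 0.02. CDT1, which loads the helicase (chromosome 16, 88803778 to 88809258, hg38), was at 2.35, 2.74 and 3.25 FPKM. Both values lay above the control, with bounds that overlap those of the control, a difference of 0.25 ± 0.20 (SE) and a limma adjusted p of 0.839. MCM7 (chromosome 7, 100092728 to 100101940), a helicase subunit, was at 7.22, 6.38 and 7.08 FPKM. MCM5 was at 2.41, 2.56 and 2.81, and MCM2 at 2.31, 2.18 and 2.92. These 3 subunits stayed within a factor of 1.26 of the control in both libraries. MCM3 was at 0.907, 0.923 and 1.58 FPKM, high in the library labelled shBCAT1 2 alone. MCM4 was at 1.23, 0.884 and 1.02, lower in both. GINS2, a subunit of the GINS complex, was at 0.884, 1.25 and 0.999.

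The 6 helicase subunits act as a ring with 1 copy of each, yet their FPKM differed. MCM7 stood highest and MCM6 lowest, at 0.612, 0.522 and 0.647 FPKM, and MCM7 was 11.8, 12.2 and 10.9 times MCM6 in the 3 libraries, with bounds apart in all 3. MCM7 over MCM5 and MCM2 over MCM3 were also apart in all 3 libraries. MCM5 and MCM2, and MCM3 and MCM4, overlapped in every library, and MCM4 lay above MCM6 with bounds apart in 1. The remaining genes of this role were below the minimum. CDC6, which recruits the helicase, was at 0.560, 0.317 and 0.535 FPKM, CDC45 at 0.772, 0.400 and 1.12, and GINS1 at 0.668, 0.773 and 0.574.

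Among genes of the replication fork and of nucleotide supply, 5 of 7 were tested, with 3 lower and 1 higher in both libraries and a median of -0.18. That median was -0.27 with shBCAT1 1 alone and -0.01 with shBCAT1 2 alone, -0.05 under quantile normalization and -0.08 without the length trend. FEN1, the nuclease that trims Okazaki fragments (chromosome 11, 61792637 to 61797242), was at 2.45, 1.85 and 1.46 FPKM. It was lower in both, and its bounds (1.05 to 1.87) lay just apart from those of the control (1.89 to 3.01) in shBCAT1 2. The difference was -0.38 ± 0.20 (SE), at an adjusted p of 0.803 by limma. POLD1, the catalytic subunit of DNA polymerase delta, was at 1.90, 2.37 and 2.91 FPKM, with the largest mean difference upward of the members, 0.32 ± 0.20 and an adjusted p of 0.803 by limma. Its control value, spread over 4 transcripts, had bounds from 0 to 3.99. PCNA, the sliding clamp, was at 5.78, 3.87 and 5.85 FPKM, low in the library labelled shBCAT1 1 alone. TK1, thymidine kinase, was at 9.65, 7.60 and 9.20, with the same library lowest. RRM1, the large subunit of ribonucleotide reductase, was at 1.27, 1.12 and 1.25. RRM2, its small subunit, was listed at 1.54, 1.14 and 2.25, with lower bounds of 0 in all 3 libraries, so that its level is not fixed by these files.

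Cyclin D1 dominated the regulators of G1 and of the entry into S phase. CCND1 (chromosome 11, 69641105 to 69654474) was at 15.2 (bounds 14.2 to 16.2), 13.9 (13.0 to 14.8) and 12.3 FPKM (11.5 to 13.2). The bounds of the last lay apart from those of the control, and it was at 0.813 times the control value. The fitted difference was -0.20 ± 0.20 (SE), its adjusted p by limma was 0.848, and quantile normalization turned the difference to 0.05. CCND1 exceeded CCND3 3.63, 3.26 and 4.25 times in the 3 libraries, with bounds apart in all 3. CCND3, cyclin D3, was at 4.18, 4.26 and 2.90 FPKM, and the last had bounds from 0.509 to 5.30. CDK4, the kinase of D cyclins, was at 2.99, 2.62 and 3.32, without a common direction. Reads of CDK4 may overlap those of its neighbour TSPAN31, at a mean of 0.696 FPKM. E2F1, a transcription factor of S phase genes, was at 1.25, 1.73 and 1.78 FPKM, higher in both with bounds that overlap. Its difference of 0.29 ± 0.18 had an adjusted p of 0.803 by limma. The cyclin E genes were low, CCNE1 at 0.457, 0.370 and 0.735 FPKM and CCNE2 at 0.184, 0.102 and 0.242, and CCND1 exceeded CCNE2 by 82.2, 136 and 51.0 times.

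The 4 tested genes of CDK1, its cyclins and its CKS partners all lay below the control in both libraries, and their median was -0.27. Over all genes tested 43.7% were lower in both and the median was -0.06. CKS1B and CKS2 are under 1000 bases, a length at which 73.9% of genes were lower in both, with a median of -0.35. CKS2, a small subunit of cyclin-dependent kinases (chromosome 9, 89311195 to 89316703), was at 6.91, 4.21 and 5.61 FPKM. It had the lowest difference of the members, -0.43 ± 0.24 (SE), with a 95% interval from -1.10 to 0.24 and a limma adjusted p of 0.803. Its paralog CKS1B, which also serves the ubiquitin ligase of p27, was at 13.1, 10.0 and 9.79 FPKM, the last with bounds from 0.717 to 18.9, where its non-coding transcript has an upper bound of 6.76. CDK1 was at 1.75, 1.34 and 1.59 FPKM, and CCNB1 (cyclin B1) at 2.71, 2.07 and 2.55. Both were lower in both libraries with bounds overlapping those of the control, and their differences of -0.16 and -0.17 had adjusted p of 0.867 and 0.868 by limma. Below the minimum, CCNB2 was at 1.09, 1.05 and 0.408 FPKM, low in the library labelled shBCAT1 2 alone with bounds that overlap those of the other libraries. CCNA2 was at 0.333, 0.323 and 0.400.

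With the libraries rescaled, all 4 stayed lower in both. Median-of-ratios scaling gave a median of -0.21 and quantile normalization -0.14. It was -0.07, with 3 of 4 lower in both, once the trend with transcript length was removed. CKS2 then differed by -0.24 in shBCAT1 1 and 0.17 in shBCAT1 2.

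Mitotic kinases, spindle proteins and chromosome proteins were mixed, with 6 of 10 tested, 3 lower and 2 higher in both libraries and a median of -0.02, which took the other sign with either rescaling (0.03 with median-of-ratios, 0.01 with quantile) and with the length trend removed (0.05). MKI67, which encodes the proliferation marker Ki-67 (chromosome 10, 128096661 to 128126204), was at 0.813, 1.07 and 1.20 FPKM. It was higher in both, and its bounds (1.00 to 1.40) lay apart from those of the control (0.659 to 0.966) in shBCAT1 2. Its difference of 0.24 ± 0.17 (SE) had a limma adjusted p of 0.811. AURKA, a kinase of centrosomes and spindle poles, was at 0.800, 1.09 and 1.27 FPKM, with control bounds from 0 to 1.70. AURKB, the kinase of the chromosomal passenger complex, was at 3.50, 2.65 and 3.49. PLK1, a kinase of mitotic entry, was at 2.72, 2.43 and 2.35, and TPX2, which activates AURKA, at 1.02, 0.933 and 1.41. BIRC5 (survivin), a partner of AURKB, was at 3.28, 2.21 and 2.99 FPKM, lowest in the library labelled shBCAT1 1. The 4 chromosome and spindle genes below the minimum had bounds that overlap those of the control. TOP2A (topoisomerase II alpha) was at 0.839, 0.849 and 0.781 FPKM, CENPF at 0.586, 0.524 and 0.526, KIF11 at 0.356, 0.304 and 0.263, and KIF20A at 0.448, 0.533 and 0.486. MKI67 and TOP2A are both used as markers of dividing cells. The former lay above the control in both libraries and the latter on either side of it, a contrast that was not tested.

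Of the spindle checkpoint and the anaphase-promoting complex, CDC20 and UBE2C reached the minimum and were lower in both libraries, beside 43.7% of all genes tested. UBE2C, the ubiquitin-conjugating enzyme of the complex (chromosome 20, 45812576 to 45816957), was at 11.2, 7.73 and 9.04 FPKM. The bounds overlap, and the difference was -0.39 ± 0.21 (SE) at an adjusted p of 0.803 by limma. CDC20, the activator of the complex, was at 5.33, 4.52 and 4.44 FPKM, a difference of -0.21 ± 0.19 with an adjusted p of 0.842 by limma. The checkpoint genes were below the minimum: MAD2L1 was at 0.593, 0.471 and 0.445 FPKM, BUB1 at 0.197, 0.282 and 0.393, and BUB1B at 0.244, 0.146 and 0.224. BUB1 and BUB1B, related genes, lay on different sides of the control, but at these low levels the bounds of both overlap those of the control.

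Among the 16 members below the minimum, 6 were lower and 2 higher than the control in both libraries and 8 differed in direction. In all 16 the bounds met those of the control in either library. In limma with no filter on level, over 16443 genes, 0 of 44 members passed, with a smallest adjusted p of 0.782 and 0 at an unadjusted p under 0.05.

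Transcript length moved with the difference among the members. The 3 members under 1000 bases, CKS1B, CKS2 and UBE2C, were all lower in both libraries, and their median was -0.39. Of all 598 genes of that length, 73.9% were lower in both and the median was -0.35. The 10 members of 3000 bases or more had 3 lower and 5 higher in both and a median of 0.10, beside a median of 0.07 and 25.0% lower in both for 1004 genes. Across the 28 members the difference correlated with the logarithm of length at a Pearson r of 0.638 and a Spearman rho of 0.565, beside 0.377 and 0.446 across 3800 genes. Genes are not independent replicates, and all points share the same 3 libraries. With the length trend over all genes removed, CKS2 changed from -0.43 to -0.04, UBE2C from -0.39 to -0.07 and CKS1B from -0.36 to -0.03. FEN1 (2296 bases) was at -0.36, POLD1 and E2F1 both at 0.29 and AURKA at 0.30, near their values without the removal. The smallest limma adjusted p of a member was then 0.889, and 12 members were lower and 8 higher in both.

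**Figure D4:**
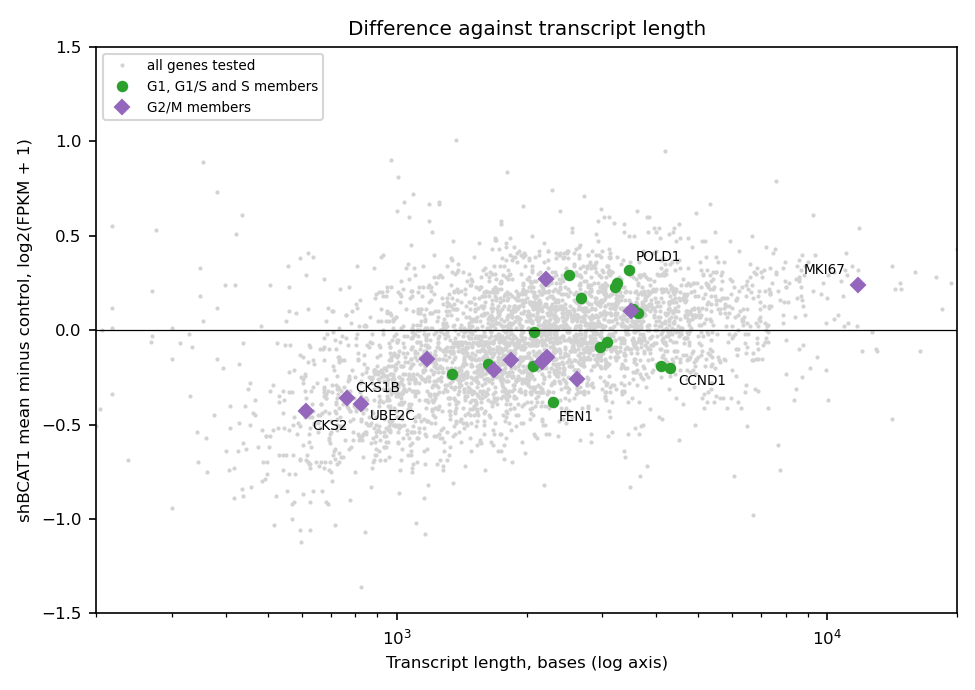
Mean difference of the libraries labelled shBCAT1 from the control, on the log2(FPKM + 1) scale, against transcript length in bases on a log axis, for 28 members (green circles, G1, G1/S and S phase; purple diamonds, G2/M) and all genes with a length (grey). The axes leave out 33 genes beyond -1.5 or 1.5, 55 shorter than 200 bases and 2 longer than 20000. CKS2, CKS1B and UBE2C sit at the short end between -0.43 and -0.36, within the grey cloud.

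The members were also grouped by promoter letters. Of 7 tested members with CHR within 60 bases before the start and a CCAAT box, 6 were lower in both libraries and 1, MKI67, higher, beside 43.7% and 25.6% of all genes tested, with a median of -0.17. Their median transcript was 1843 bases. Of 8 tested members with an E2F match, 2 lay lower and 4 higher in both libraries, the median difference was 0.13 and the median transcript 2818 bases. CDK1 belongs to both sets. With the length trend removed the medians were -0.08 and 0.11. These are counts of few genes, 0 of which passed the test, and the difference between the groups was not tested.

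Several members carried their FPKM on different transcripts in different libraries. Among the 14 tested members with several transcripts, BIRC5 (chromosome 17, 78214196 to 78225635) is the 1 for which this set both libraries labelled shBCAT1 apart from the control. Transcript NM_001012270 held 1.86 FPKM in the control (bounds 1.30 to 2.41), and its upper bound was 0.0559 in shBCAT1 1 and 0.0530 in shBCAT1 2. Transcript NM_001168, the full-length form, had an upper bound of 0.0550 in the control and stood at 1.27 (0.829 to 1.71) and 2.19 (1.67 to 2.72). A further form, NM_001012271, was at 1.42, 0.938 and 0.801. Of 14 tested members with several transcripts, 1 had a transcript lower and another higher than the control in both libraries with bounds apart, beside 4.91% of 2096 such genes. In shBCAT1 1 alone this held for MCM7, BIRC5 and UBE2C, beside 14.6% of genes, and in shBCAT1 2 alone for CDK1 and BIRC5, beside 15.4%. Between the libraries labelled shBCAT1 themselves it held for POLD1 and AURKA, beside 14.6% of genes. Below the minimum of 1 FPKM, CDC45 had the same pattern as BIRC5. Its transcript NM_001178011 was at 0.772 FPKM in the control (0.416 to 1.13), with upper bounds of 0.0789 and 0.0747 in the libraries labelled shBCAT1. Its NM_003504 had an upper bound of 0.0750 in the control and stood at 0.400 (0.159 to 0.641) and 0.799 (0.416 to 1.18). BUB1, also below the minimum, had its FPKM on a different transcript in each library. These were NM_001278616 in the control (0.197), NM_004336 in shBCAT1 1 (0.282) and NM_001278617 in shBCAT1 2 (0.393). The change in BUB1 thus also lay between the libraries labelled shBCAT1. Kept to the transcript with the highest mean over the 3 libraries, NM_001168, BIRC5 had a difference of 1.43, against -0.26 for the sum. The limma adjusted p was 0.714. That transcript was chosen with its high values in the libraries labelled shBCAT1, so its upward difference follows from the choice and is not a result about the gene.

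The full-length form of BIRC5 holds a coding exon of 118 bases that NM_001012270 lacks, at chr17:78216664-78216781 on the plus strand (GENCODE release 29, GRCh38). Its length is not a multiple of 3, so the form without it is read in another frame downstream. It is shown because reads over it and its junctions separate NM_001168 from NM_001012270. NM_001012271, at 1.42 FPKM in the control, also holds this exon, so the exon is not absent from the control. That form differs from the full-length form by an exon of 69 bases.
BIRC5 exon: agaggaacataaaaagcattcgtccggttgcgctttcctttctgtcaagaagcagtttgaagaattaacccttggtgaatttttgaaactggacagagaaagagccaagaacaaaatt

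CDK1 (chromosome 10, 60778331 to 60794852) had its FPKM on different transcripts in the libraries labelled shBCAT1. Transcript NM_001786 held 1.70 FPKM in the control (1.18 to 2.23) and 1.13 in shBCAT1 1 (0.273 to 1.99), and had an upper bound of 0.0714 in shBCAT1 2. Transcript NM_033379 had an upper bound of 0.0864 in the control, stood at 0.212 in shBCAT1 1 (0 to 1.18) and at 1.59 in shBCAT1 2 (1.08 to 2.09). Between the libraries labelled shBCAT1 the bounds of NM_001786 lay apart and those of NM_033379 overlapped. The sum over transcripts, 1.75, 1.34 and 1.59 FPKM, moved little beside this. The forms differ by a coding exon of 171 bases, a multiple of 3, at chr10:60788060-60788230 on the plus strand, which NM_033379 lacks.
CDK1 exon: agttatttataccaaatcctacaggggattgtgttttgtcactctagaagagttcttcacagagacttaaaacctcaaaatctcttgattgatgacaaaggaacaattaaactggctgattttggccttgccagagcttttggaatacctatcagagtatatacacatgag

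The most abundant transcript of a gene differed among the 3 libraries for 6 of 14 tested members with several transcripts, MCM7, POLD1, CDK1, AURKA, AURKB and BIRC5, beside 32.6% of genes. MCM7 had 78.1% of its FPKM on NM_005916 in the control, 47.4% in shBCAT1 1 and 63.4% in shBCAT1 2, with the rest on NM_182776. POLD1 had 42.9%, 73.4% and 5.97% on the non-coding NR_046402.

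**Figure D5:**
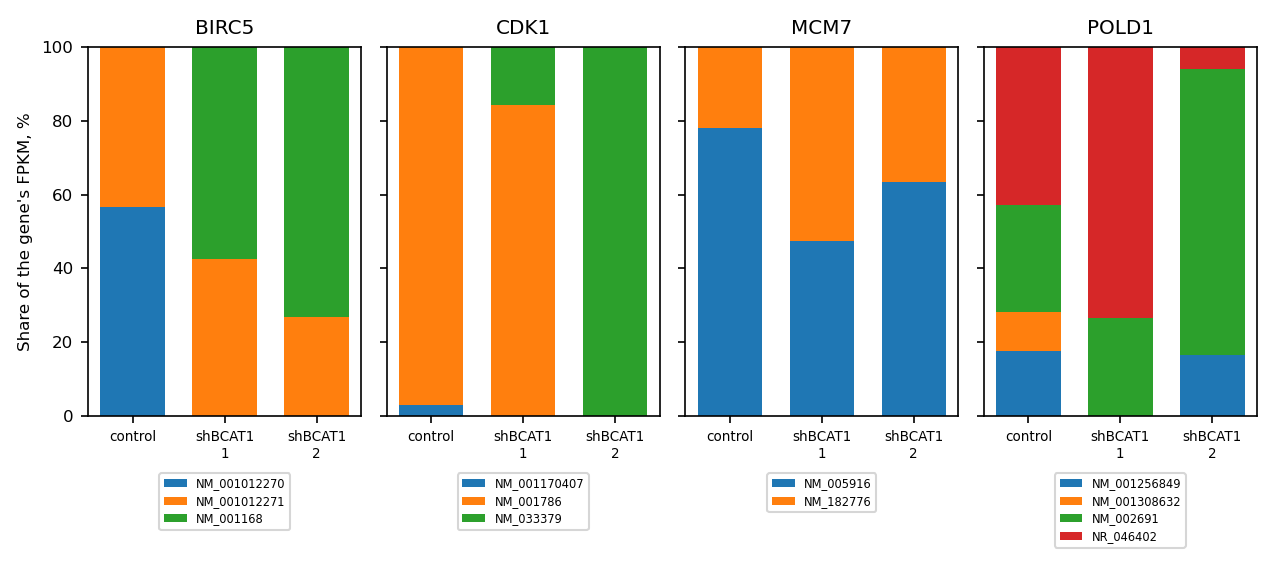
Share of a gene's FPKM, in percent, on each RefSeq transcript in the 3 libraries, for BIRC5, CDK1, MCM7 and POLD1, with transcripts under 0.05 FPKM in all libraries left out. In BIRC5, NM_001012270 holds 56.6% in the control while NM_001168 holds 57.5% in shBCAT1 1 and 73.2% in shBCAT1 2. In CDK1, NM_001786 holds 96.9% in the control and 84.2% in shBCAT1 1, and NM_033379 nearly all in shBCAT1 2.

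Other genes of the cell cycle, from a list of 152, gave the same outcome. Of 47 with at least 1 FPKM, 0 passed the adjusted p by limma (smallest 0.798) and 1 had an unadjusted p under 0.05. In both libraries 21 were lower and 6 higher, beside 43.7% and 25.6% of all genes tested. Their median was -0.08, beside -0.06 over all genes. Of 44 other replication genes 14 were tested, 4 lower and 2 higher in both. POLE4, a small subunit of DNA polymerase epsilon, was at 11.3, 8.23 and 8.41 FPKM, and LIG1, the ligase of Okazaki fragments, at 1.51, 1.52 and 1.94. POLE4 was lower in both libraries, with an adjusted p of 0.798 by limma.

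The counts of few genes in this paragraph stand beside 43.7% of all genes tested lower in both libraries and 25.6% higher. Of 43 other mitosis genes 16 were tested, 10 lower and 2 higher in both, and the median was -0.19. BUB3, a partner of BUB1 at kinetochores, was at 3.34, 1.88 and 2.17 FPKM, a difference of -0.52 ± 0.19 (SE) with a limma adjusted p of 0.798. SPC24, of the kinetochore NDC80 complex, was at 2.50, 1.57 and 1.76, and CDC25B, a phosphatase that activates CDK1, at 1.63, 2.00 and 2.58. The anaphase-promoting complex list had 8 of 17 tested, 5 lower and 0 higher in both, and the median was -0.21. Its ubiquitin-conjugating enzyme UBE2S was at 85.8, 60.9 and 63.3 FPKM, with bounds apart below the control in both libraries, as in 4.17% of genes tested. Its subunit ANAPC11 was at 11.4, 8.52 and 6.42. UBE2S, ANAPC11, BUB3 and SPC24 were lower in both libraries, but none passed the test. Condensin and cohesin had 4 of 17 tested, 2 lower (RAD21 and SMC4) and 2 higher (NCAPH2 and NCAPD2) in both. Of the RB, E2F and DREAM genes 4 of 24 were tested, and of 7 listed CDK inhibitors 1. The latter list does not hold the whole family, so these counts do not speak for it.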

How the data were processed

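RNA of 3 libraries of MTAC-P cells was measured, 1 control and 2 labelled shBCAT1. The deposited values are FPKM that the authors computed separately per library, with a lower and an upper bound, 1 entry per RefSeq transcript and locus, per the file headers. Trim Galore, TopHat, Cufflinks and build hg38 are named in the submitters' processing notes. Their versions and settings, and whether counting used strand, were not given in the sources used here. Each table held 56882 entries for 50337 accessions. A RefSeq table on GRCh38.p14 named 49281, GENCODE release 29 another 645, and 411 kept their accession. FPKM was summed per gene, and 341 genes with a status other than OK were left out of the tests. An SD was taken per entry as the distance to the upper bound divided by 2, and SDs of a gene's entries were added in squares. The bounds of a gene are its summed value plus and minus 2 SD, not below 0. This takes entries as independent, although transcripts of a gene share reads, so bounds of genes with several transcripts are approximate. Read totals are unknown, so no floor is given for a value of 0.

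The 3889 genes averaging 1 FPKM or more entered limma 3.58.1 (R 4.3.3) as log2(FPKM + 1), which understates changes of low genes, with a trend, two-sided, adjusted by Benjamini-Hochberg over all genes. With 1 control library, residual spread (1 degree of freedom, beside 2.99 prior) rests on the shBCAT1 group, and the fit takes the control to vary alike. The fit was tested on simulated data. Lengths came from GENCODE transcripts weighted by FPKM. Python 3.11.15, pandas 2.3.3, numpy 2.4.6 and matplotlib 3.10.9 were used. Members and lists were chosen with earlier results of these data known. Every member is accounted for. Of each other list, up to 2 genes per direction with the largest smaller difference of one sign in both libraries could be named. CDKN2A, on none of these lists, is named outside this rule. Alternatives changed the pseudocount, the filter, scaling, summing, trend, short loci, length and libraries.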

Additional observations from a re-analysis of the deposited data

How the results depend on the processing

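In 0 of 284 values of the 28 members over 11 alternative settings did a member pass the adjusted p of limma, whose smallest was 0.463, at a minimum of 5 FPKM. The sign changed in 8 of the 284. CDK4 was at 0.04 (median-of-ratios scaling), 0.06 (quantile normalization) and 0.02 (length trend removed). With quantile normalization MCM7 and CCND1 were both at 0.05. AURKB was at 0.55 and BIRC5 at 1.43 with the highest transcript of each gene only, and AURKB at 0.04 with the length trend removed. With the highest transcript only, BIRC5 had an unadjusted p under 0.05, the 1 such case among these values. Its transcript was chosen by the mean over the 3 libraries and is high only in those labelled shBCAT1, so this p cannot be read as a result. The median of the members was -0.06 with log2(FPKM + 5), beside -0.03 over all genes, and -0.06 with no filter, beside 0.00. At a minimum of 5 FPKM it was -0.23, beside -0.22 over all genes left there. Under quantile normalization it was -0.03, beside 0.02 over all genes, and without the length trend -0.05, beside 0.01. At a minimum of 5 FPKM, 7 members were left, 6 lower and 0 higher in both libraries. The count of all genes past the adjusted p, 14, became 0 with no filter, 8 at a minimum of 5 FPKM, 8 with the highest transcript only and 1 without loci under 300 bases. The cause of these shifts was not tested, other than that the minimum and the locus limit leave fewer genes. Leaving out 1 library labelled shBCAT1 leaves no residual spread and so no test. The members' median then ranged from -0.13 to -0.02, the latter without the library labelled shBCAT1 1, with 16 to 19 members below the control and 9 to 12 above. No paired analysis was possible because the control has 1 library. The SD read from the bounds reached 50.0% of the value for CCNE2 among members below 1 FPKM, and 56.2% for AURKA and 55.0% for POLD1 among those tested. It holds both depth and the division of reads among transcripts, which these files do not separate.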
